A study of Mus musculus with 2 samples.

Results

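The genes examined here encode 10 subunits of Polycomb repressive complex 2 (PRC2): Ezh1, Ezh2, Eed, Suz12, Rbbp4, Rbbp7, Phf1, Phf19, Mtf2 and Jarid2. They were chosen by gene symbol, and all 10 were found among the 54680 loci of the deposited table. The study compared 2 cultures of CT26, a mouse colon cancer cell line, by RNA sequencing of total RNA. One culture had been infected with lentivirus coding for a hairpin RNA that targets Setdb1 (CT26shSetdb1, genotype Setdb1 knockdown), which the labels also call differentiated. The other had received the empty knockdown vector (CT26shCtrl, genotype Wild type). Both were collected after 6 days in serum-containing RPMI medium, and whether the cells were a pool or 1 clone is not given in the sources used here. With 1 library in each group there is no replicate check, and every difference given describes these 2 libraries rather than the conditions.

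PRC2 is a histone methyltransferase complex that places methyl groups on lysine 27 of histone H3, a mark of silenced genes. EZH1 and EZH2 are its alternative catalytic subunits, EED reads the finished mark and stimulates the enzyme, and SUZ12 holds the complex together. RBBP4 and RBBP7 are histone chaperones that PRC2 shares with other chromatin complexes. Accessory subunits divide PRC2 into forms: the Polycomb-like proteins PHF1, PHF19 and MTF2 mark the PRC2.1 form, and JARID2 with AEBP2 marks the PRC2.2 form. SETDB1 methylates a different residue, lysine 9 of histone H3.

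The RNAs of 2 catalytic subunits, 1 scaffold subunit and Jarid2 differed most between the libraries, and in opposite directions. Ezh1 and Suz12 were lower in the knockdown library, at 56.4% and 48.2% of the control level in reads corrected for library total, while on the same scale Ezh2 was at 136% and Jarid2 at 203%. Eed and Rbbp7 differed by less than counting error. No member reached a 2-fold difference on the log2(FPKM + 1) scale, where FPKM is the number of fragments scaled to gene model length and, in this table, to 1 depth common to both libraries. The pair of catalytic genes went from 70.7% Ezh1 in the control library to 50.0% Ezh1 in the knockdown library, as shares of their summed FPKM.

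The promoters of 4 of these genes are shown because their RNA took different directions while 3 of them carry the same kind of motif. Each runs from 250 bases before to 30 bases after the RefSeq start of the gene on GRCm38.p6, in the gene's own direction, and the position just before the start is counted as -1. The windows are chr11:101226434-101226713 (minus strand) for Ezh1, chr6:47595001-47595280 (minus) for Ezh2, chr11:79992856-79993135 (plus) for Suz12 and chr2:34913947-34914226 (minus) for Phf19. Capitals mark matches to the E2F motif (TTTCCCGC, TTTCGCGC, TTTGCCGC or TTTGGCGC) or to the CCAAT box (CCAAT), each searched on both strands.
Ezh1: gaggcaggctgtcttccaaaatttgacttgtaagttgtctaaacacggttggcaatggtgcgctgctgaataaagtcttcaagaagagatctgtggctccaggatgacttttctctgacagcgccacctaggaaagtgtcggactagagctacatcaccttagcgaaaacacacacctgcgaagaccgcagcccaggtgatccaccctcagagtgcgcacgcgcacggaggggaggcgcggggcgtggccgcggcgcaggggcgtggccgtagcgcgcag
Ezh2: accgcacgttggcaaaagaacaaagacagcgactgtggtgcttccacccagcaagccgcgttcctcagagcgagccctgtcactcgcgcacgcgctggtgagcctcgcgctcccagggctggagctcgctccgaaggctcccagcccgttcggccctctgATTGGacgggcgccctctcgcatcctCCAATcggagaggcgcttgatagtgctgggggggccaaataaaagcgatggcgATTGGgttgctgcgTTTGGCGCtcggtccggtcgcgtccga
Suz12: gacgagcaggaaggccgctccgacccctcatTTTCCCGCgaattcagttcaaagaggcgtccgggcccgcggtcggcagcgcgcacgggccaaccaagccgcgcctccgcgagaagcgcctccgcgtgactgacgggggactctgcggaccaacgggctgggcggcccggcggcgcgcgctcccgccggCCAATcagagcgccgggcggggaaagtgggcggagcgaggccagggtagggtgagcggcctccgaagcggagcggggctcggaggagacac
Phf19: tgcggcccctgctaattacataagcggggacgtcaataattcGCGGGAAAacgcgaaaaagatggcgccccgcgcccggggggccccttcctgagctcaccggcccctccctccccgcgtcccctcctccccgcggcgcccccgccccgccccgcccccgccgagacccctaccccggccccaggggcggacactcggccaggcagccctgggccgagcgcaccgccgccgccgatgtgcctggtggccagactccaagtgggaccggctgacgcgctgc

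E2F factors control genes of the cell division cycle. In these windows an E2F match began at position 4 of the transcript in Ezh2, at -219 in Suz12 and, on the opposite strand, at -208 in Phf19. Of the 32851 promoter windows of this length in the table, 2.12% held an E2F match. The RNA of the 3 genes did not share a direction: Ezh2 was higher, Suz12 lower and Phf19 close to its control level. Jarid2 and Mtf2 have a pair of windows each, which gives 12 windows for the 10 genes. A CCAAT box stood in 8 of the 12 windows, against 36.1% of all windows, and these belonged to 7 genes (Eed, Ezh2, Jarid2, Mtf2, Rbbp4, Rbbp7 and Suz12). In Mtf2 the second window alone held it, and Ezh2 had 3 such boxes. Ezh1 and Phf1 held neither motif. No member held a match to the ETS motif CCGGAAGT on either strand, which is in 3.72% of all windows. Of the 12 windows, 11 were above the median GC content of 52.5%, with a range of 46.4% to 75.7%, and 10 held more CG dinucleotides than the upper quartile of 19. A match is a description of the letters and shows no binding.

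Setdb1, the targeted gene, went from 1340 reads (10.4 FPKM) in the control library to 317 reads (2.47 FPKM) in the knockdown library. Its read ratio was 0.229, with a 95% interval of 0.202 to 0.259. Intervals on read ratios were computed by the exact binomial (Clopper-Pearson) method, relative to the totals of the 2 libraries. Only counting error is in them, since each group had 1 library. Copies made by PCR cannot be told from separate molecules here, so the intervals may be too narrow even for counting error. The reads were recovered from FPKM and gene length, and totalled 18421604 for the control library and 19045830 for the knockdown library. Of 12 colon epithelial markers, 3 reached 1 FPKM, all keratins (Krt18, Krt19 and Krt20), and Epcam and Cdh1 had 0 reads in both libraries. Of 8 mesenchymal markers, 7 reached 1 FPKM, and Vim was at 752 and 835 FPKM. The 7 split in direction, with 4 above their control level and 3 below on the log2(FPKM + 1) scale. The lower genes were Col1a1, Col1a2 and Col3a1, and Col3a1 went from 493 to 163 reads. The summed level of the epithelial markers was 43.9 FPKM in the control and 128 FPKM in the knockdown library. Nearly all of this sum was Krt18 (37.7 and 90.0 FPKM) and Krt20 (5.07 and 35.6 FPKM). Krt19 reached 1 FPKM only in the knockdown library, from 1 to 53 reads. The 9 epithelial markers under 1 FPKM had 46 and 57 reads together. The summed level of 10 leukocyte, endothelial and erythroid markers was 10.7 FPKM and 101 FPKM. Nearly all of the latter was Cd68, which went from 245 to 2360 reads, while Adgre1 and Itgam had 0 reads and Ptprc had 0 and 4. The part of these shifts in the PRC2 values was not tested.

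**Figure D1:**
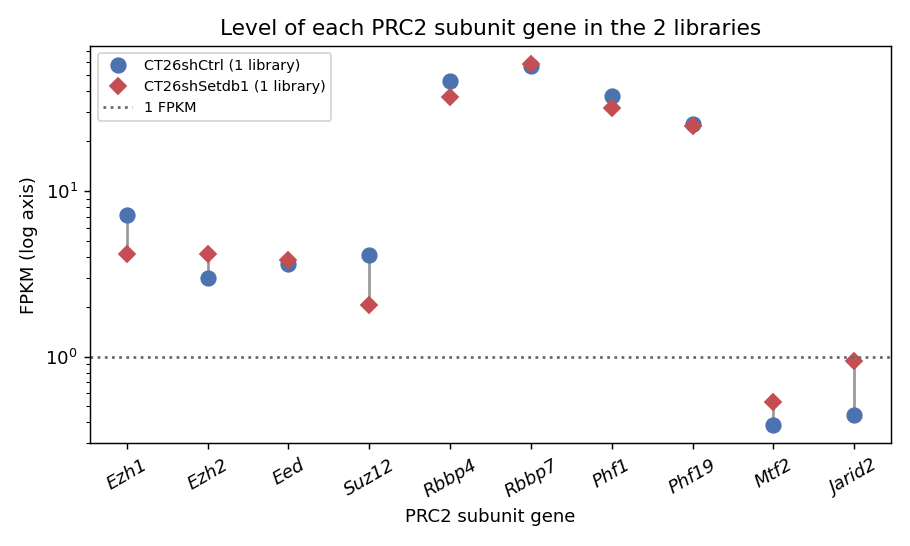
FPKM (log axis) of the 10 PRC2 subunit genes in the control library (circles) and the knockdown library (diamonds), 1 library each, with a dotted line at 1 FPKM. Rbbp4, Rbbp7, Phf1 and Phf19 lie above 24 FPKM in both libraries, Ezh1, Ezh2, Eed and Suz12 between 2.04 and 7.15 FPKM, and Mtf2 and Jarid2 below 1 FPKM.

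The members fell into 3 bands of level, and the bands held the same genes in both libraries. In the control library the highest were Rbbp7 (57.1 FPKM), Rbbp4 (46.1), Phf1 (37.5) and Phf19 (25.5), followed by Ezh1 (7.15), Suz12 (4.09), Eed (3.60) and Ezh2 (2.97), and then by Jarid2 (0.445) and Mtf2 (0.384). In the knockdown library the order of the middle band became Ezh1 (4.17), Ezh2 (4.17), Eed (3.85) and Suz12 (2.04). Suz12 thus went from second to last within its band, and Ezh2 from last to level with Ezh1. Neighbours whose 95% exact Poisson intervals overlapped, so that their order is not set beyond counting error, were Suz12 with Eed, Eed with Ezh2, and Jarid2 with Mtf2 in the control library. In the knockdown library they were Ezh1 with Ezh2 and Ezh2 with Eed. The median of the 10671 loci that reached 1 FPKM in either library was 7.38 FPKM in the control library. The 4 genes of the middle band lay below it, at the 28.3 to 49.2 percentiles of those loci, and the chaperones and the 2 abundant Polycomb-like genes at the 78.0 to 90.1 percentiles.

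The catalytic subunit genes stood in a different balance in the 2 libraries. Ezh1 (ENSMUSG00000006920, chromosome 11, 101191115 to 101226463, minus strand) had 996 reads (7.15 FPKM) in the control and 581 reads (4.17 FPKM) in the knockdown library. Its log2 ratio of (FPKM + 1) was -0.66 and its read ratio 0.564 (95% interval 0.508 to 0.626). Ezh2 (ENSMUSG00000029687, chromosome 6, 47530139 to 47595341, minus strand) had 371 reads (2.97 FPKM) in the control and 521 reads (4.17 FPKM) in the knockdown library. Its log2 ratio was 0.38 and its read ratio 1.36 (1.19 to 1.56). EZH2 is the form usually linked to dividing cells and EZH1 the form found also in resting ones. A link between cell division and the values of this pair was not tested. The library with less Setdb1 RNA had less Ezh1 and more Ezh2 RNA. The summed FPKM of the pair was 10.1 in the control and 8.33 in the knockdown library.

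The ratio of Ezh2 to Ezh1 reads was 2.41 times as high in the knockdown library as in the control library, with an exact conditional 95% interval of 2.03 to 2.86. A ratio of 2 genes within each library does not depend on how the libraries are scaled, and it shows unequal change rather than which of the 2 moved. The share of Ezh2 in the pair's FPKM was 29.3% in the control and 50.0% in the knockdown library. These shares depend on gene length, since the deposited FPKM divide by all annotated exons together (6678 bases for Ezh2) while the principal transcript of Ezh2 in GENCODE M21 has 2787. Per kilobase of principal transcript, a choice made after seeing the data, the share of Ezh2 was 35.9% and 57.4%. Ezh1 was the more abundant of the pair in the control library by both lengths. In the knockdown library it was level with Ezh2 by the first and lower by the second.

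**Figure D2:**
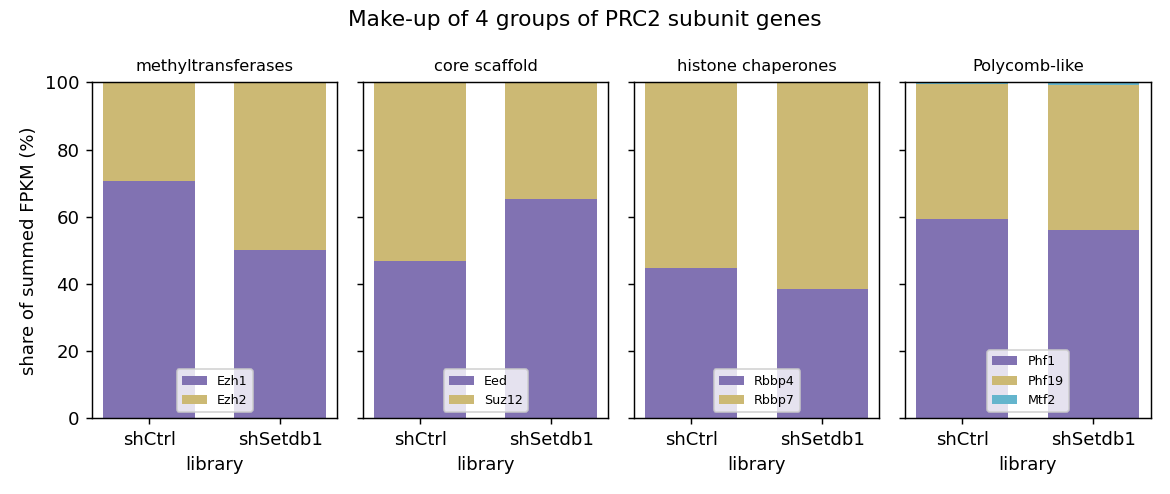
Share (%) of each gene in the summed FPKM of its group, in the control (shCtrl) and knockdown (shSetdb1) libraries, with bars stacked to 100%. The Ezh1 share goes from 70.7% to 50.0% and the Suz12 share from 53.2% to 34.6%, while the split between Phf1 and Phf19 moves by a few points.

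The scaffold genes also differed from each other. Suz12 (ENSMUSG00000017548, chromosome 11, 79993106 to 80034123, plus strand) had 379 reads (4.09 FPKM) in the control and 189 reads (2.04 FPKM) in the knockdown library. Its log2 ratio was -0.74, the lowest of the 10 members, and its read ratio was 0.482 (0.403 to 0.576). Of the 10671 loci, 21.3% had a ratio at least as far from 0 in either direction, so the difference was not unusual for these 2 libraries. Eed (ENSMUSG00000030619, chromosome 7, 89954654 to 89980983, minus strand) had 258 reads (3.60 FPKM) and 276 reads (3.85 FPKM), and its read ratio of 1.03 had an interval of 0.870 to 1.23. The ratio of Eed to Suz12 reads was 2.15 times as high in the knockdown library (1.67 to 2.76). SUZ12 and EED are both needed for the enzyme to work, and their RNAs stood at nearly the same level in the control and apart in the knockdown library. Their order in the control library turns with the length used: Suz12 was the higher by gene model and Eed by principal transcript (6.66 against 4.63 reads per kilobase on the same depth scale).

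The histone chaperone genes were the most abundant members. Rbbp4 (ENSMUSG00000057236, chromosome 4, 129307100 to 129335370, minus strand) had 7544 reads (46.1 FPKM) in the control and 6029 reads (36.8 FPKM) in the knockdown library. Its log2 ratio was -0.32, and its read ratio of 0.773 had the narrowest interval of the 10 (0.747 to 0.800). Rbbp7 (ENSMUSG00000031353, chromosome X, 162760402 to 162779092, plus strand) had 3110 reads (57.1 FPKM) and 3188 reads (58.5 FPKM), a read ratio of 0.991 (0.943 to 1.04). The ratio of Rbbp7 to Rbbp4 reads was 1.28 times as high in the knockdown library (1.21 to 1.36). The close paralogs thus did not move alike, though the difference was small. Rbbp7 shares its protein match with 1 processed pseudogene, Gm6382, which had 41 reads in each library. Rbbp4 shares its match with 5 processed pseudogenes, all with 0 reads. By principal transcript Rbbp4 was above Rbbp7 in the control library (91.4 against 74.0 reads per kilobase on the same depth scale), the opposite of their order in FPKM.

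Among the Polycomb-like genes of PRC2.1, Phf1 and Phf19 made up nearly all of the RNA. Phf1 (ENSMUSG00000024193, chromosome 17, 26933127 to 26937890, plus strand) had 1708 reads (37.5 FPKM) in the control and 1452 reads (31.9 FPKM) in the knockdown library, a read ratio of 0.822 (0.766 to 0.882). Phf19 (ENSMUSG00000026873, chromosome 2, 34893757 to 34914026, minus strand) had 2404 reads (25.5 FPKM) and 2320 reads (24.6 FPKM), a read ratio of 0.933 (0.881 to 0.989). The order of Phf1 and Phf19 in the knockdown library turns with the length used. By principal transcript Phf1 was at 36.2 and Phf19 at 34.3 reads per kilobase on the same depth scale in the control, and at 30.7 and 33.1 in the knockdown library. The deposited model of Phf1 (2429 bases) is shorter than its annotated exons together in GENCODE M21 (3486 bases). All 3 Polycomb-like proteins bind methylated lysine 36 of histone H3 through a Tudor domain and bring PRC2 to CpG-rich DNA. Mtf2 (ENSMUSG00000029267, chromosome 5, 108065674 to 108109004, plus strand) had 41 reads (0.384 FPKM) and 57 reads (0.534 FPKM), and its read ratio of 1.34 had a wide interval of 0.884 to 2.06. Its share of the group's FPKM was 0.606% in the control and 0.936% in the knockdown library. A change of Mtf2 was not detectable at this depth. Its gene model overlaps that of Tmed5 on the other strand, which had 180 and 125 reads, and whether counting used strand is not given in the sources used here.

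Jarid2, the gene of the PRC2.2 subunit that binds nucleosomes carrying ubiquitin on histone H2A, stood low in both libraries. Jarid2 (ENSMUSG00000038518, chromosome 13, 44729474 to 44921643, plus strand) had 81 reads (0.445 FPKM) in the control and 170 reads (0.934 FPKM) in the knockdown library. Its read ratio was 2.03, the highest of the 10 members, with an interval of 1.55 to 2.68. On the log2(FPKM + 1) scale the same difference was 0.42, because a pseudocount of 1 is larger than either level. With Mtf2 it was 1 of the 2 members under 1 FPKM in both libraries, and so it entered no count at that minimum.

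Of the other PRC2 cofactors, Aebp2 stood at the level of the middle band and the other 3 that were found stood under 1 FPKM. Aebp2, the DNA-binding partner of JARID2 in PRC2.2, went from 741 reads (4.02 FPKM) to 459 reads (2.49 FPKM), a read ratio of 0.599 (0.532 to 0.674). The PRC2.2 genes Jarid2 and Aebp2 therefore lay on opposite sides of their control levels. Lcor had 43 and 29 reads and Lcorl 46 and 39, and both intervals included 1 (0.393 to 1.07 and 0.521 to 1.28). Their products, known as PALI proteins in one isoform, join PRC2.1. Epop, another PRC2.1 cofactor, had 0 reads in both libraries. Of the 5 genes listed, 4 were found by symbol and 1, Ezhip, was not analysed here.

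**Figure D3:**
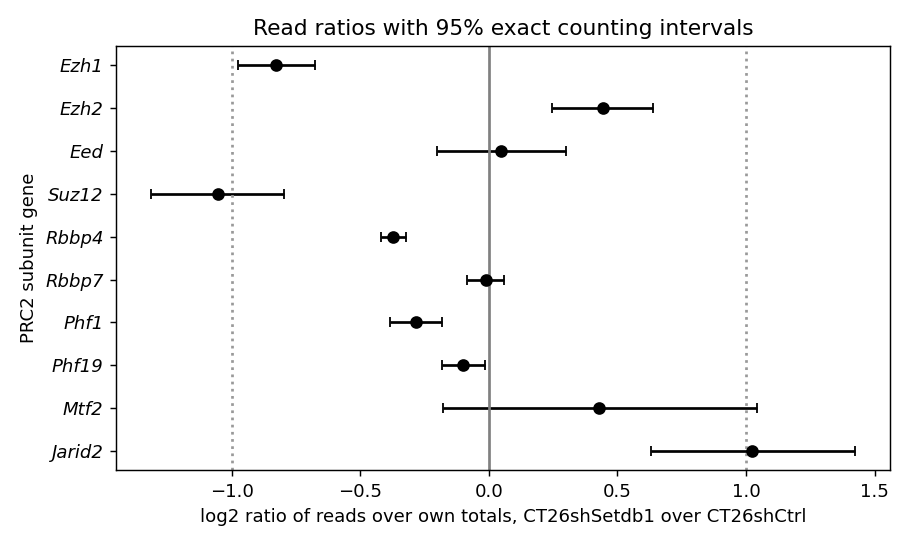
Log2 ratio of reads over each library's own total, knockdown over control, for the 10 PRC2 subunit genes, with 95% exact binomial intervals (bars) and dotted lines at 2-fold. Ezh1, Suz12, Rbbp4, Phf1 and Phf19 lie below 0, Ezh2 and Jarid2 above, and the intervals of Eed, Rbbp7 and Mtf2 include 0.

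Counted over the members, 8 of 10 reached 1 FPKM in at least 1 library. Of these 8, 5 had a log2 ratio below 0 and 3 above, and 0 were past 2-fold in either direction, where 11.7% of all loci at 1 FPKM were (6.81% higher and 4.85% lower). At a threshold of 1.5-fold, Ezh1 and Suz12 were past it, both lower, where 31.2% of all loci were (14.3% lower). The median log2 ratio of the 8 was -0.14, against -0.00039 for all loci, and 5 of the 8 lay between the quartiles of all loci, -0.36 and 0.38. The direction of Rbbp7, 0.04 on this scale, turned to -0.01 with the libraries' own totals. The median of all 10 members without the minimum was -0.0071.

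By counting intervals, 5 of the 8 were lower, 1 was higher (Ezh2) and 2 included 1 (Eed and Rbbp7). The same rule called 75.8% of all loci at 1 FPKM (35.2% higher and 40.6% lower), so 6 of 8 is close to the background and says nothing particular of PRC2. Over all 10 members, Jarid2 joined the higher genes and Mtf2 those whose interval included 1. By the read ratio without a pseudocount, an alternative added after seeing the data, Suz12 (0.482) and Jarid2 (2.03) were past 2-fold, so 2 of 10 passed, where 17.6% of the 10985 loci with 60 or more reads did (8.68% higher and 8.89% lower). Ezh1 and Suz12, which had the lowest read ratios of the 10, could not be told apart by counting error, as the ratio of their read ratios was 1.17 (interval 0.951 to 1.44).

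Summed over all 10 members, the FPKM were 185 in the control and 168 in the knockdown library, and the reads 16892 and 14783. Most of both sums came from Rbbp4, Rbbp7, Phf1 and Phf19, so the sums say little about the catalytic core.

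**Figure D4:**
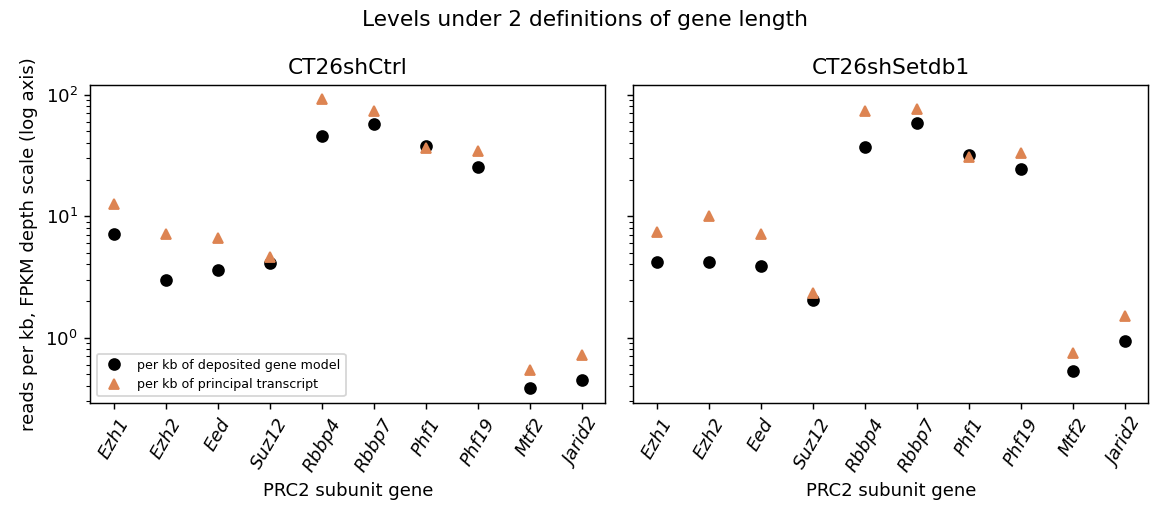
Reads per kilobase on the depth scale of FPKM (log axis) of the 10 PRC2 subunit genes in the control library (left) and the knockdown library (right), per kilobase of the deposited gene model (circles) and of the principal GENCODE M21 transcript (triangles). The 3 bands of level stay apart under both lengths, with Jarid2 at 1.51 in the knockdown library by principal transcript, and Ezh2 lies above Ezh1 there only by that length.

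The rest of the Polycomb system is given from lists of known genes, for genes that reached 1 FPKM in either library. PRC1, the complex that places ubiquitin on histone H2A and compacts chromatin, had 24 of 25 genes at this level. Of these, 12 had a ratio above 0 and 12 below, with a median log2 ratio of -0.0063. Bcorl1, of the variant PRC1.1 form, was the 1 gene past 2-fold higher, from 280 to 919 reads (log2 ratio 1.30). Pcgf6, of the variant PRC1.6 form, was the 1 gene past 2-fold lower, from 258 to 95 reads (log2 ratio -1.15). Together they are 8.33% of the list, beside the 11.7% of all loci.

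The list of lysine 27 demethylases and enzymes that oppose Polycomb, also by removing ubiquitin from histone H2A, had 12 of 16 genes at 1 FPKM. The median log2 ratio of the 12 was -0.16, and 0 were past 2-fold, where 11.7% of all loci were. Kdm6b, which removes methyl groups from lysine 27 of histone H3, was the highest, from 1405 to 1848 reads (0.37). Bap1, which removes ubiquitin from histone H2A, was the lowest, from 2980 to 1704 reads (-0.78). Kdm6a, the other lysine 27 demethylase, was under the minimum, with 140 and 103 reads. When only genes at 5 FPKM were kept, 7 genes remained and the median was 0.13, so the list has no stable direction.

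RBBP4 and RBBP7 also serve the NuRD, SIN3, CAF-1 and NURF complexes. Of 19 other genes of those complexes, 18 reached 1 FPKM, and their median log2 ratio was 0.09. Sap30, a SIN3 subunit, was the 1 gene past 2-fold, from 209 to 481 reads (1.12), which is 5.56% of the 18 beside 11.7% of all loci. Mta1, of NuRD, was the lowest, from 4564 to 2740 reads (-0.72). The 27 E2F and S-phase genes, some of which share regulators with Ezh2, had a median of 0.05, with 15 above 0 and 12 below. E2f2, a transcription factor gene, was the highest, from 128 to 781 reads (1.99), followed by the cyclin gene Ccne1, from 772 to 2453 reads (1.61). These 2 were the genes past 2-fold, 7.41% of the list, beside 11.7% of all loci. Top2a, a DNA topoisomerase gene used as a marker of dividing cells, was the lowest, from 2208 to 1254 reads (-0.74). The list takes in both quartiles of all loci, so lying within its range says little of a gene. Ezh2, at 0.38, lay above the list's median. Suz12 (-0.74) and Phf19 (-0.05), which also hold an E2F match, lay below it. A link of these values to E2F factors was not tested.

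Genes often silenced by PRC2 lay on both sides of their control levels. Of 39 Hox genes, which pattern the body axis, 10 reached 1 FPKM, 5 above 0 and 5 below. Their median log2 ratio was -0.0016, and 0.00013 under scaling by the median ratio. By counting intervals, 2 of the 10 were higher and 4 lower, where 35.2% and 40.6% of all loci at 1 FPKM were. Hoxb9 was the 1 gene past 2-fold, from 300 reads (6.22 FPKM) to 33 reads (0.684 FPKM), which is 9.40-fold lower (6.55 to 13.9). That is 10.0% of the 10 genes, beside 11.7% of all loci. Hoxa9 was the highest, from 182 to 315 reads (0.55). Reads of the 29 Hox genes under 1 FPKM summed to 87 and 117, a ratio over library totals of 1.30 (0.977 to 1.74), and 16 of the 39 had 0 reads in both.

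Of 40 other genes often marked by PRC2, 9 reached 1 FPKM, 3 above 0 and 6 below, with a median of -0.14. By counting intervals, 2 of the 9 were higher and 6 lower, where 35.2% and 40.6% of all loci at 1 FPKM were. Msx1, from 185 to 481 reads (1.15), and Bmp2, from 49 to 186 reads (1.13), were past 2-fold higher, and Foxc1, from 379 to 182 reads (-0.74), was the lowest. Msx1 and Bmp2 are 22.2% of the 9 genes, few in number, beside 11.7% of all loci. Bmp2 was at 0.736 FPKM in the control and 2.79 FPKM in the knockdown library. It thus entered the 9 only through the library where it was higher. With the filter at 5 FPKM, 1 gene was past 2-fold higher. With a pseudocount of 0.1, 1 gene was past 2-fold lower beside the 2 higher. The 31 genes under 1 FPKM had 144 and 118 reads, a ratio of 0.793 (0.616 to 1.02). In both libraries 21 of the 40 had 0 reads, among them the neighbouring cell cycle inhibitor genes Cdkn2a and Cdkn2b. Why these genes had 0 reads was not tested. Histone methylation was not measured.

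**Figure D5:**
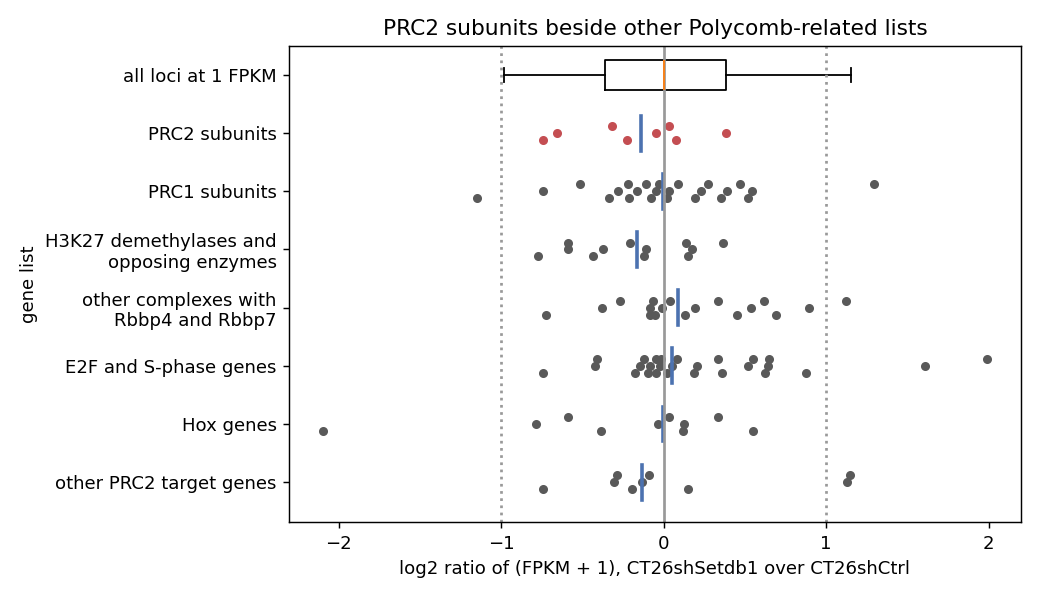
Log2 ratio of (FPKM + 1), knockdown over control, for each gene at 1 FPKM or more of the PRC2 subunits and of 6 other lists (points), with list medians (blue lines), dotted lines at 2-fold, and a box for all such loci (median, quartiles, whiskers at the 5 and 95 percentiles). The 8 PRC2 points run from -0.74 to 0.38, inside the dotted lines, while Hoxb9 (-2.10) and E2f2 (1.99) lie farthest out.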

How the data were processed

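RNA from 2 CT26 cultures was sequenced, 1 library per group. The authors deposited FPKM values per gene, per the file headers, with gene length and position. The submitters' processing notes name CASAVA, HISAT2, featureCounts 1.5.0-p3 and GRCm38, without their roles, and the strand setting is not given in the sources used here. Gene model lengths, in bases per the file headers, matched all annotated exons together in GENCODE M21 for 9 of the 10 members (not Phf1). Whole reads were recovered as FPKM times length over a common step (tolerance 0.01, 100% of values above 0), and both libraries had been divided by one depth of 18731117 reads.

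Log2 ratios of (FPKM + 1) used a pseudocount of 1 and a minimum of 1 FPKM in at least 1 library, and called 2-fold differences. Read ratios used each library's own total, 1.03 apart, with 95% exact intervals. No test between conditions is possible with 1 library per group. The members and lists were chosen with earlier results of these data known. Genes named are the members, Setdb1, the cofactors, each list's highest and lowest gene and those past 2-fold; marker genes, Hox and target genes at 0, Kdm6a and Vim were named after their values were seen. Where a symbol had several loci, the one with most reads was used. Promoter sequences are from RefSeq (GRCm38.p6), matched by symbol for all 10 members. Calculations were tested on simulated data. The software was scipy 1.17.1, numpy 2.4.6, pandas 2.3.3 and matplotlib 3.10.9 under Python 3.11.15.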

Additional observations from a re-analysis of the deposited data

How the results depend on the processing

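The read ratio without a pseudocount and the principal transcript length were chosen after seeing the data. Setdb1 had a log2 ratio of -1.72 with the pseudocount of 1, and -1.76 when the libraries' own totals were used with it. With a pseudocount of 0.1 it was -2.04. As a read ratio without a pseudocount, which also uses the libraries' own totals, it was -2.13. Of 70 alternative values of the members, 65 stayed within counting error and 5 moved. Those that moved were the read ratios of Ezh1, Suz12, Rbbp4 and Jarid2, and Jarid2 with a pseudocount of 0.1. Jarid2 went from 0.42 to 0.92 with that pseudocount and to 1.02 as a read ratio. Adding reads of loci with the same protein match could change only Rbbp7, so for the other members that alternative repeats the main value. Among the 65, Rbbp7, whose interval included 1, turned sign, from 0.04 to -0.01 with the libraries' own totals and -0.01 as a read ratio. The number of PRC2 genes past 2-fold became 2 lower at a 1.5-fold threshold (14.3% of all loci), and 1 higher and 1 lower by the read ratio. Without a filter on low values the PRC2 median was -0.0071 and that of the other cofactors -0.0693, as low genes joined. With the filter at 5 FPKM the medians were 0.13 for opposing enzymes (7 genes), 0.18 for E2F and S-phase genes (21) and -0.99 for Hox genes (2). With 99% intervals, or under median-ratio or upper-quartile scaling, the count of lower members was 4, not 5, without Phf19. The ratios between paralogs could not change with the principal transcript length, as length cancels in them. Adding reads of loci with the same protein match could change only Rbbp7 over Rbbp4, which stayed at 1.28. Neither alternative therefore tests these ratios. No paired analysis was possible because there was a single library per group, which also means that none could be left out. Depth limits Mtf2 and Jarid2, with 41 to 170 reads.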
